A study of Sus scrofa with 12 samples.

Results

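The comparison described here sets pig blood mononuclear cells given a miR-124 sponge together with Salmonella against cells given Salmonella alone. Its members were chosen by column name: 4 libraries with miR-124 and Salmonella in the name and 4 with Salmonella only, which makes 8 of the 12 libraries of the series, and every gene of the table was kept. The cells were peripheral blood mononuclear cells (PBMC) of Duroc × Landrace × Yorkshire crossbred piglets, 4 weeks old, and RNA was taken 12 h after treatment, a time the design text gives for treated cells. The design text names the bacterium as Salmonella Typhi and counts 20 piglets, 10 of each sex. The 4 untreated control libraries came from the same kind of cells and entered the estimate of spread. No label ties a library to an animal or to a culture, so the p-values reflect how much these libraries scatter, which may be technical. The sample titles and column names of the combined group give miR-124 and Salmonella without the word sponge, while the descriptions give a miR-124 sponge. No library received the sponge without the bacterium, so an effect of the sponge on its own was not measured.

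Mature microRNAs guide a silencing complex to messenger RNAs, usually through pairing of their seed, and lower the output of those messages. A sponge is a decoy that carries binding sites for a microRNA and holds it away from its natural targets. In blood leukocytes, bacterial lipopolysaccharide is sensed by Toll-like receptor 4 (TLR4) and leads through NF-kB to cytokines and through interferon regulatory factors to interferons. Interferons then act through JAK kinases and STAT factors on a large set of antiviral and antibacterial genes, and SOCS proteins restrain the same kinases. PBMC consist mainly of T cells, B cells, natural killer cells and monocytes, and monocytes carry much of the direct response to bacteria.

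The table held 7480 gene symbols with a log2 value for each in all 12 libraries. Library medians lay between 5.11 and 5.31. Pearson correlations across genes, which are not independent replicates, were 0.953 to 0.986 between Salmonella libraries, 0.964 to 0.981 between sponge libraries and 0.900 to 0.964 between the groups. Salmonella replicate 1 stood apart: its correlations were 0.942 to 0.964 with the sponge libraries and 0.953 to 0.969 with the other Salmonella libraries. In the sponge columns 65.1% to 71.4% of genes shared their value with another gene, against at most 0.0802% in any other column, so the kind of column and the treatment cannot be told apart. The ties lay mostly among low values, with 96.8% to 98.8% of sponge values under 5 tied and 6.75% to 9.72% of those at 8 or more. A set of 195 genes that blood does not normally use (olfactory and taste receptors, keratin-associated proteins and the like) had a mean value of 4.62, with 95% of their values in single libraries at or under 5.24. A value near 4.62 is therefore close to the level of unexpressed genes, and a difference that starts or ends there has an uncertain size. The highest value, 15.01, was the maximum of 6 libraries, and IFITM3 held it in all 4 Salmonella libraries, so it is treated as a ceiling.

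Across all genes, limma called 1873 of 7480 (25.0%) at an adjusted p under 0.05, 888 higher (11.9%) and 985 lower (13.2%) with the sponge than with Salmonella alone. The median difference over all genes was -0.04 on the log2 scale. Among called genes, 362 were higher and 311 lower by at least 1 on the log2 scale, and 44 were higher and 57 lower by at least 2. Values of the 2 groups did not overlap for 1780 genes (23.8%), and 1408 genes met both conditions. The share called rose with level, from 17.0% of 3323 genes with a mean under 5 to 37.1% of 1454 genes with a mean of at least 8, where 204 were higher and 335 lower. Salmonella replicate 1 was the Salmonella library nearest to the sponge mean for 911 of the 1873 called genes, and without it 2013 genes were called, 931 higher and 1082 lower. In bulk RNA from mixed cells, fewer cells of a type and less RNA per cell cannot be told apart.

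**Figure D1:**
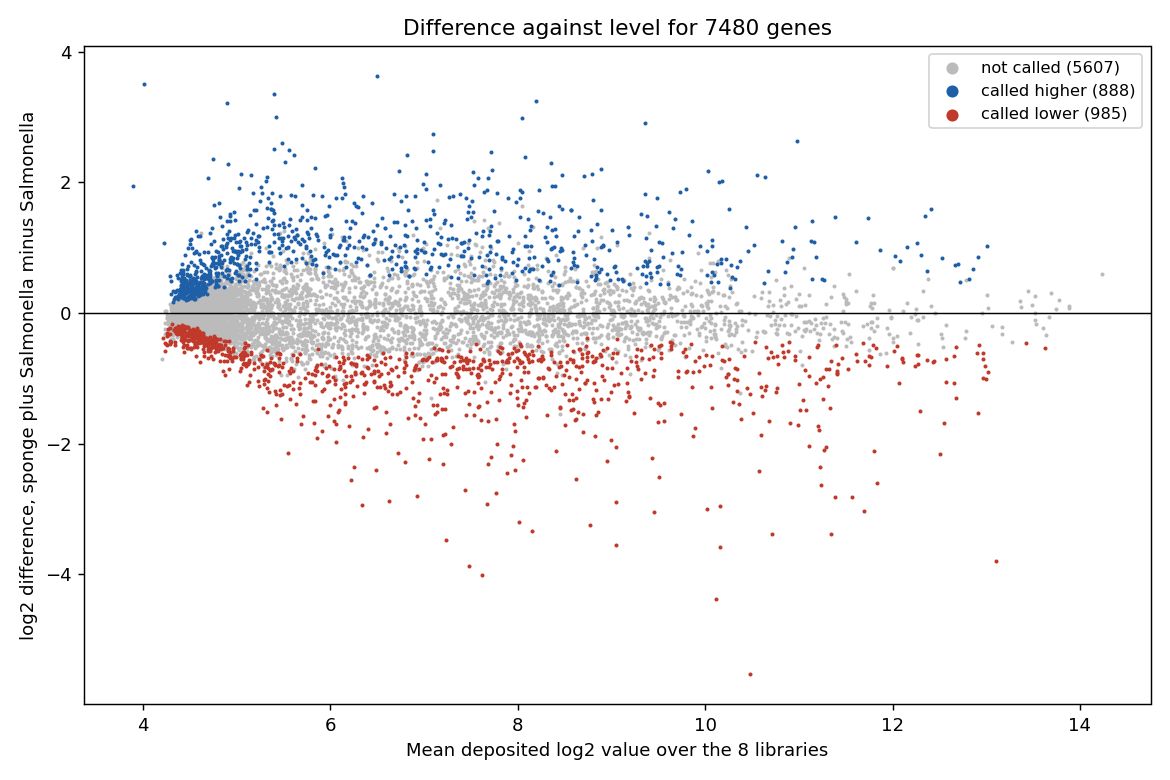
Difference between the groups (vertical axis, log2, sponge plus Salmonella minus Salmonella) against the mean deposited log2 value over the 8 libraries (horizontal axis), 1 point a gene. Blue points are the 888 genes called higher and red points the 985 called lower. The falls reach -5.53 and the rises 3.63.

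ANKRD22, BATF2, GBP6 and IFITM3 gave the deepest falls among called genes whose groups did not overlap and whose mean was at least 5. In what follows the 4 values of a group stand in the order of replicates 1 to 4, differences are given on the log2 scale with their standard error, and coordinates are those of RefSeq on Sscrofa11.1. ANKRD22, an ankyrin repeat protein induced in activated myeloid cells (chromosome 14, 100747955 to 100772412), was at 12.11, 13.61, 13.35 and 13.92 with Salmonella alone, at 10.17, 10.23, 5.07 and 5.38 with the sponge and at 2.98 to 3.55 in controls. It fell by 5.53 ± 0.96 (limma adjusted p = 0.00127). That standard error draws on all 3 groups, whose standard deviations were 2.88 with the sponge, 0.79 with Salmonella and 0.27 in controls. Sponge replicates 3 and 4 lay far below replicates 1 and 2. BATF2, a basic leucine zipper factor induced by interferon gamma (chromosome 2, 7180019 to 7188996), showed the same layout, with 8.80, 9.82, 9.72 and 10.13 against 6.75, 6.51, 4.54 and 4.64 and a difference of -4.01 ± 0.46 (limma adjusted p = 0.000117). Its controls lay at 3.47 to 3.97, under the level of unexpressed genes, and sponge replicates 3 and 4 were close to that level. GBP6, a guanylate-binding protein that coats intracellular bacteria, was at 8.11, 9.49, 9.996 and 10.04 with Salmonella and at 6.58, 6.58, 4.57 and 4.43 with the sponge, a difference of -3.87 ± 0.51 (limma adjusted p = 0.000277). IFITM3, a membrane protein that blocks virus entry (chromosome 2, 128658 to 129736), sat at the ceiling of 15.01 in all 4 Salmonella libraries and at 12.35, 12.50, 8.91 and 11.06 in the sponge libraries. Its difference of -3.80 ± 0.55 is therefore measured from a capped value (limma adjusted p = 0.000406). The cap left a standard deviation of 0 among the Salmonella libraries, so the standard error and the p-value are uncertain as well.

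In the other large falls sponge replicates 1 and 2 also lay above replicates 3 and 4, although in TNFAIP6 and TCN2 replicates 1 and 2 differed more from each other than the lower of them did from replicates 3 and 4. IFIT3, which binds foreign RNA ends together with its relatives, was at 11.24, 11.75, 12.24 and 12.56 with Salmonella, 9.46, 9.78, 7.20 and 7.02 with the sponge and 4.10, 4.15, 3.69 and 5.99 in controls. P2RY14, a receptor for UDP-glucose (chromosome 13, 91396006 to 91453761), went from 9.89, 11.07, 11.33 and 11.02 with Salmonella to 8.09, 9.02, 5.49 and 6.51 with the sponge. TNFAIP6, a hyaluronan-binding protein induced by inflammation (chromosome 15, 862013 to 881352), was at 12.45, 12.09, 12.34 and 12.75 against 9.22, 10.58, 8.24 and 8.03. No sponge value of these 3 genes reached the lowest Salmonella value, which the rule for the largest falls required. SLAMF8, a surface receptor of activated macrophages, was at 9.15, 10.20, 9.87 and 10.07 with Salmonella and 8.17, 7.48, 5.13 and 5.13 with the sponge, a difference of -3.34 ± 0.55 (limma adjusted p = 0.000943). SLC6A12, a betaine transporter, was at 9.25, 9.96, 9.46 and 9.78 against 7.92, 7.09, 5.39 and 5.24, a difference of -3.20 ± 0.47 (limma adjusted p = 0.000452). TCN2, the plasma carrier of vitamin B12, was at 8.47, 9.19, 8.54 and 9.69 with Salmonella, 6.92, 5.74, 4.65 and 4.64 with the sponge and 4.79 to 5.58 in controls. Sponge replicates 3 and 4 of TCN2 lay under every control value. The remaining large falls were IFI6, PLSCR1, TIMM10, VAMP5 and EIF1AY, with differences of -3.38 to -2.997. TIMM10, a chaperone of the mitochondrial intermembrane space, was at 9.64, 11.12, 11.25 and 11.89 with Salmonella and 8.81, 8.71, 7.04 and 7.17 with the sponge. EIF1AY lies on the Y chromosome, the sexes of the animals behind the libraries are not given, and its X-linked relative EIF1AX, whose sequence is very similar, was called higher by 1.47 ± 0.31 (limma adjusted p = 0.00450; chosen after its values were seen). The EIF1AY difference was -2.997 ± 0.89 (limma adjusted p = 0.0244), it lost the call without Salmonella replicate 3 (0.0513), and the part of sex in it was not tested.

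**Figure D2:**
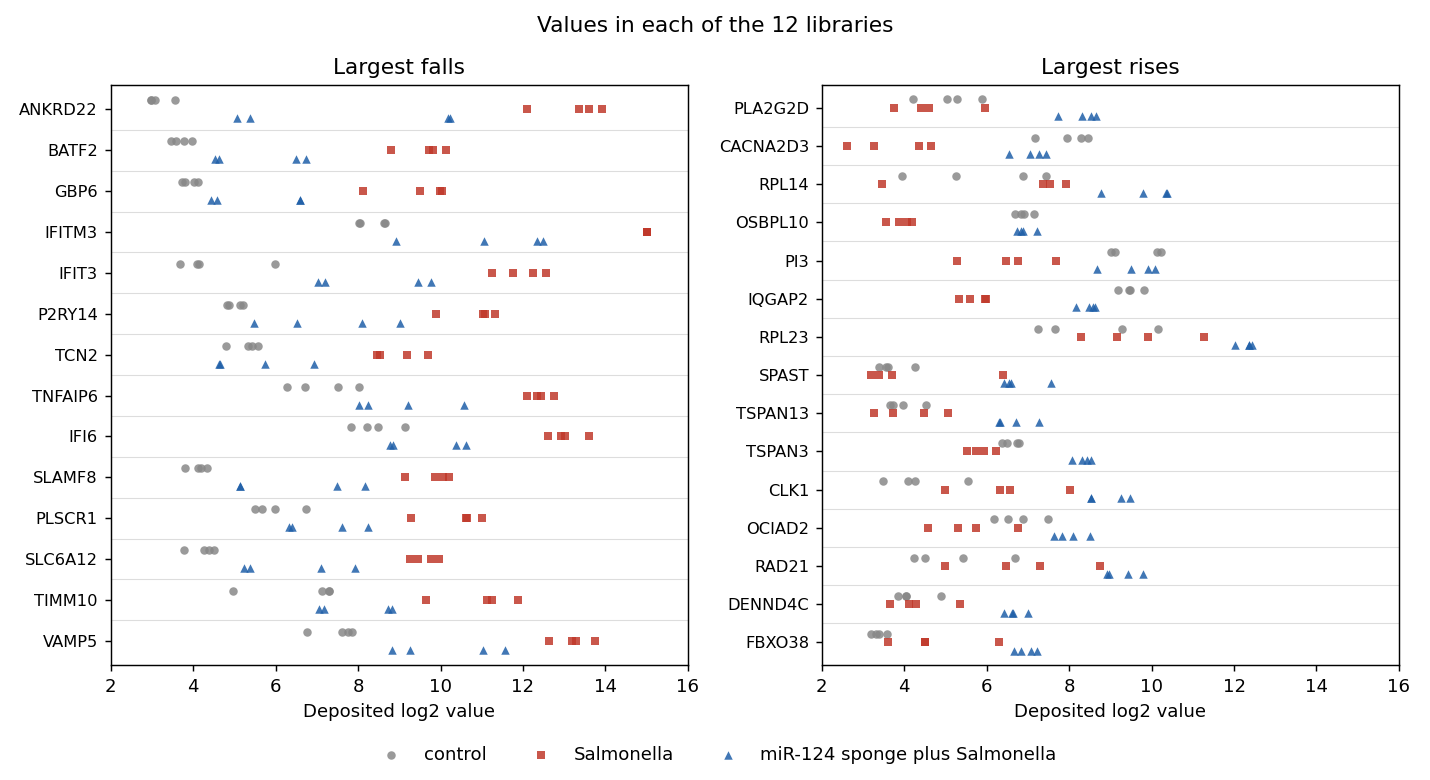
Deposited log2 values (horizontal axis) in each of the 12 libraries for the genes with the largest falls (left, EIF1AY not drawn) and rises (right). Grey circles are controls, red squares Salmonella and blue triangles sponge plus Salmonella. In the left panel the blue triangles lie in 2 pairs for several genes, for ANKRD22 at 5.07 and 5.38 and at 10.17 and 10.23. In the right panel the 4 triangles lie to the right of the red squares, with a spread of 8.78 to 10.39 for RPL14. Genes were drawn only where these 2 groups did not overlap.

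Among the 15 largest rises, sponge replicates 1 and 2 both lay above replicates 3 and 4 in SPAST, RAD21 and DENND4C and not in the others. PLA2G2D, a secreted phospholipase with anti-inflammatory activity (chromosome 6, 78391063 to 78397394), was at 5.95, 4.41, 3.74 and 4.61 with Salmonella, 7.74, 8.32, 8.64 and 8.54 with the sponge and 4.22, 5.29, 5.89 and 5.03 in controls. It rose by 3.63 ± 0.43 (limma adjusted p = 0.000139), and all 4 sponge values lay above every value of the other groups. TSPAN3, a tetraspanin of the cell surface (chromosome 7, 57162080 to 57187515), behaved likewise, with 6.22, 5.94, 5.74 and 5.52 against 8.08, 8.53, 8.44 and 8.31, controls at 6.37 to 6.80 and a rise of 2.48 ± 0.20 (limma adjusted p = 4.10e-06).

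A second set of risers stood in the sponge libraries near or under the control level. OSBPL10, an oxysterol-binding protein of B cells (chromosome 13, 17651168 to 18032288), was at 4.18, 3.87, 3.55 and 4.07 with Salmonella, 6.89, 6.82, 7.22 and 6.73 with the sponge and 6.69 to 7.15 in controls, a rise of 2.998 ± 0.22 (limma adjusted p = 1.61e-06). IQGAP2, a scaffold of small GTPases (chromosome 2, 85294423 to 85633645), was at 5.59, 5.96, 5.34 and 5.997 against 8.48, 8.17, 8.59 and 8.64, with controls at 9.18 to 9.81 and a rise of 2.75 ± 0.20 (limma adjusted p = 1.61e-06). The sponge values of OSBPL10 overlapped the controls and those of IQGAP2 lay under them. CACNA2D3, an auxiliary subunit of calcium channels (chromosome 13, 36222295 to 37025119), was at 4.64, 2.60, 3.28 and 4.36 with Salmonella, a mean under the unexpressed level, and at 7.43, 6.55, 7.28 and 7.04 with the sponge, a rise of 3.36 ± 0.41 (limma adjusted p = 0.000159) with controls at 7.17 to 8.46. PI3, the elastase inhibitor elafin (chromosome 17, 47522402 to 47524451), was at 7.69, 5.28, 6.75 and 6.48 against 8.67, 10.08, 9.49 and 9.91, a rise of 2.99 ± 0.44 (limma adjusted p = 0.000490), with controls at 9.01 to 10.24.

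In another set the controls were low, the sponge libraries high and Salmonella replicate 1 was the Salmonella library closest to the sponge. SPAST, which severs microtubules, was at 6.40, 3.71, 3.403 and 3.20 with Salmonella, 6.58, 7.57, 6.43 and 6.53 with the sponge and 3.403 to 4.26 in controls, a rise of 2.60 ± 0.53 (limma adjusted p = 0.00336). CLK1, a kinase of splicing factors, was at 8.02, 6.34, 6.58 and 5.002 against 8.53, 9.25, 9.48 and 8.52, with controls at 3.50 to 5.55, and rose by 2.46 ± 0.53 (limma adjusted p = 0.00457). RAD21, a cohesin subunit, was at 8.75, 6.47, 7.29 and 4.999 against 9.43, 9.78, 8.91 and 8.97, with controls at 4.23 to 6.69. FBXO38, DENND4C and TSPAN13 had the same order of libraries, with sponge values of 6.68 to 7.22, 6.42 to 6.996 and 6.31 to 7.27 and control values of 3.20 to 3.58, 3.85 to 4.88 and 3.65 to 4.53. In SPAST, DENND4C and TSPAN13 the Salmonella mean lay under the unexpressed level, so the size of their rises is uncertain. OCIAD2, a mitochondrial protein, was at 6.77, 5.32, 5.75 and 4.59 with Salmonella, 7.64, 7.84, 8.50 and 8.11 with the sponge and 6.18 to 7.48 in controls. The ribosomal protein genes RPL14 and RPL23, given with their family further on, complete the 15 largest rises among called genes whose groups did not overlap and whose mean was at least 5.

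The antiviral effectors that interferons induce were the list with the largest share of members called, 83.3%. Of 30 measured, 24 fell and 1 rose, and the median difference was -1.71, beside 25.0% called and -0.04 over all genes. Like the other lists, this one was written with earlier results of these data known. The mean of the list was 9.74 to 10.36 in the Salmonella libraries, 8.92, 8.75, 7.85 and 7.84 in sponge replicates 1 to 4 and 6.84 to 7.41 in controls, with no overlap between any of the groups. IFI6, a small membrane protein of mitochondria and endoplasmic reticulum, was at 12.60, 12.93, 13.02 and 13.59 with Salmonella and 10.38, 10.62, 8.85 and 8.77 with the sponge, a difference of -3.38 ± 0.40 (limma adjusted p = 0.000133). CMPK2, a mitochondrial nucleotide kinase, was at 7.37, 7.80, 8.09 and 9.03 against 5.69, 5.46, 4.80 and 4.80, a difference of -2.88 ± 0.33 (limma adjusted p = 0.000117). OASL, a relative of the oligoadenylate synthetases that boosts RNA sensing, was at 9.70, 10.37, 10.32 and 11.60 against 8.04, 8.04, 7.39 and 6.92, a difference of -2.90 ± 0.38 (limma adjusted p = 0.000280). ZBP1, a sensor of Z-form nucleic acid, had the smallest spread between sponge libraries of these genes, at 9.72, 9.79, 9.56 and 9.20 with 10.77, 11.28, 11.03 and 11.67 for Salmonella, and fell by 1.62 ± 0.20 (limma adjusted p = 0.000189). In all 4 genes every sponge value lay under every Salmonella value. The member that rose, PNPT1, a mitochondrial RNA exonuclease named after its values were seen, was at 10.66, 9.61, 9.18 and 8.96 with Salmonella, 11.69, 11.50, 11.82 and 11.72 with the sponge and 8.62 to 10.24 in controls (difference 2.08 ± 0.35, limma adjusted p = 0.00102). Leaving out any 1 library left 22 to 25 members lower, and 25 without Salmonella replicate 1.

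**Figure D3:**
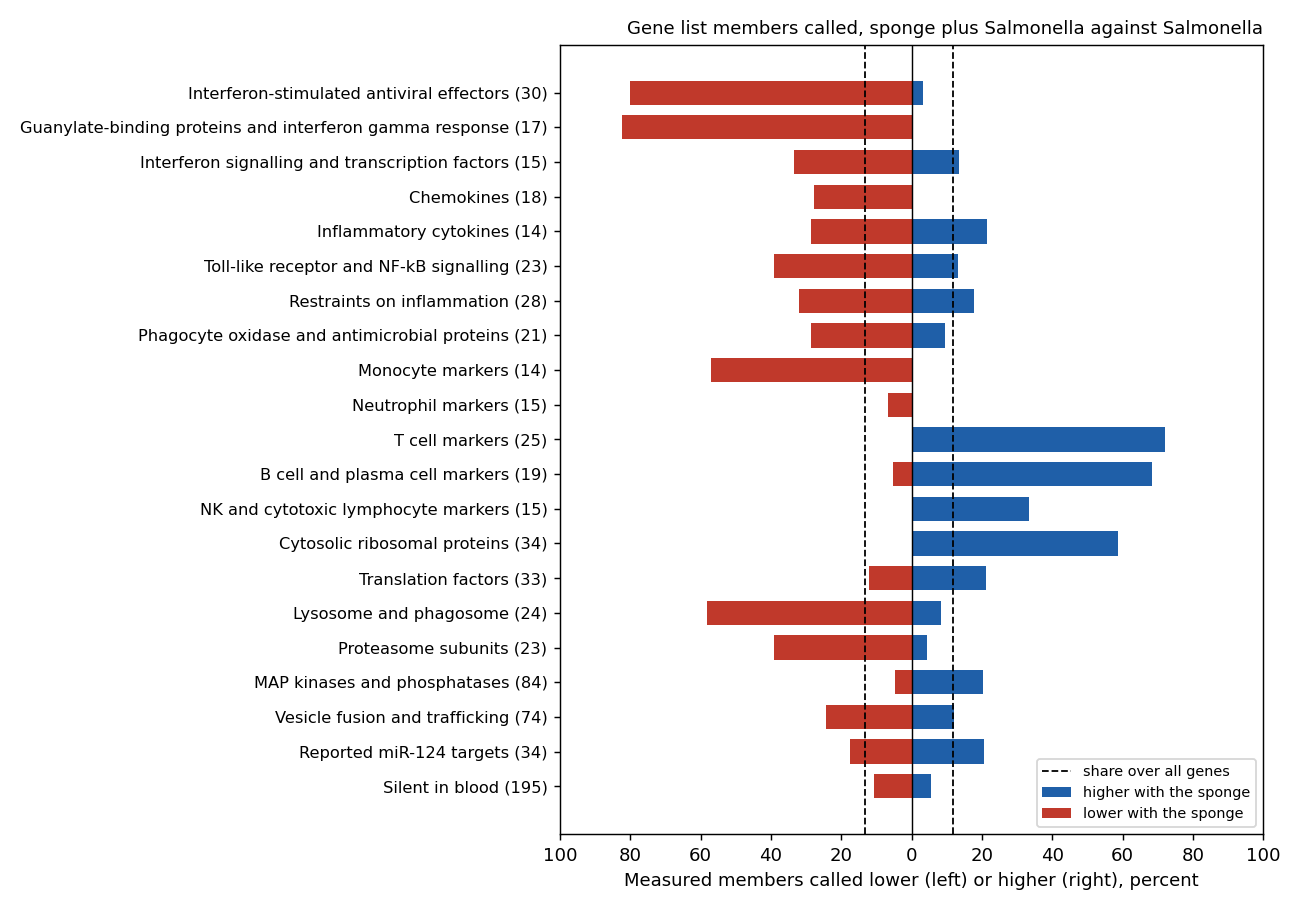
Share of the measured members of 21 gene lists (rows, with the number measured) called lower (red, to the left) or higher (blue, to the right) with the sponge, in percent. Dashed lines mark the shares over all genes, 13.2% lower and 11.9% higher. Interferon effectors and guanylate-binding proteins extend farthest to the left, and T cell, B cell and ribosomal protein genes to the right.

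Guanylate-binding proteins and other genes of the interferon gamma response formed the list with the largest median fall. Of 17 measured, 14 fell and none rose (82.4% called, beside 25.0% over all genes), with a median difference of -2.64. This list also was written with earlier results of these data known. It holds ANKRD22, BATF2, GBP6 and TCN2, which are among the largest falls described above. Its share called and its median are therefore partly built in and are no independent result. List means were 9.61 to 10.39 with Salmonella, 8.50, 8.34, 6.57 and 6.73 in sponge replicates 1 to 4 and 5.60 to 5.84 in controls. PDCD1LG2, the PD-1 ligand PD-L2, was at 5.85, 6.70, 7.13 and 6.80 with Salmonella and 4.40, 4.68, 4.41 and 4.41 with the sponge, near its controls (4.26 to 4.35) and the unexpressed level (difference -2.15 ± 0.23, limma adjusted p = 6.37e-05). CD274, the ligand PD-L1, was at 5.97, 8.07, 8.13 and 7.84 against 4.85, 5.98, 4.41 and 4.54, a difference of -2.56 ± 0.44 (limma adjusted p = 0.00115), although sponge replicate 2 and Salmonella replicate 1 overlapped at 5.98 and 5.97. VAMP5, a vesicle membrane protein (chromosome 3, 59177460 to 59185703), was at 12.64, 13.75, 13.18 and 13.28 against 11.57, 11.03, 8.83 and 9.27. TNFSF10, the death ligand TRAIL, was at 12.60, 12.64, 12.74 and 13.46 against 11.56, 11.32, 10.34 and 9.77, a difference of -2.12 ± 0.34 (limma adjusted p = 0.000785). Each fit with 1 library left out gave 14 members lower.

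The machinery that transmits interferon signals moved in both directions. Of 15 receptors, kinases and transcription factors, 5 fell and 2 rose (46.7% called, beside 25.0% over all genes), with a median of 0.07. IRF1, a transcription factor of the interferon gamma response, was at 13.38, 13.88, 13.66 and 13.78 with Salmonella, 12.83, 12.10, 11.80 and 11.88 with the sponge and 11.101 to 11.58 in controls, a difference of -1.53 ± 0.21 (limma adjusted p = 0.000318). STAT3, which carries signals of interleukin-6 and interleukin-10 and is a reported miR-124 target, was at 8.51, 9.39, 9.22 and 9.37 with Salmonella, 7.40, 8.05, 8.10 and 7.99 with the sponge and 6.87 to 7.64 in controls. It fell by 1.24 ± 0.25 (limma adjusted p = 0.00301), with the lowest sponge value in replicate 1. BATF2 also fell, and so did IFNGR2, a chain of the interferon gamma receptor, with a difference of -0.81 ± 0.18 (limma adjusted p = 0.00513), and STAT5A with -0.48 ± 0.16 (limma adjusted p = 0.0436), both named after their values were seen. JAK1, a kinase shared by the interferon receptors, rose by 0.97 ± 0.16 (limma adjusted p = 0.000984), from 8.28, 8.48, 8.50 and 8.70 with Salmonella to 9.17, 9.50, 9.73 and 9.44 with the sponge and with controls at 8.44 to 8.79. The other riser was IRF4, a factor of B and plasma cells, at 1.05 ± 0.36 (limma adjusted p = 0.0457; named after its values were seen).

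Genes that restrain inflammation were divided as well, with 9 of 28 lower and 5 higher (50% called, beside 25.0% over all genes). SOCS1, an inhibitor of JAK kinases, was at 8.05, 9.55, 9.05 and 10.03 with Salmonella and 7.51, 7.51, 5.98 and 6.06 with the sponge, a difference of -2.40 ± 0.42 (limma adjusted p = 0.00127). SOCS3, a further member of that family that acts on interleukin-6 receptors, was at 6.28, 7.39, 7.15 and 6.59 against 5.54, 5.72, 5.38 and 5.19, with controls at 4.17 to 5.04, and fell by 1.40 ± 0.28 (limma adjusted p = 0.00331). All sponge values of both genes lay between the control and the Salmonella values. PLA2G2D led the risers, and the others, named after their values were seen, were the interleukin-1 decoy receptor IL1R2, SOCS5, CTLA4 and ZFP36L2, higher by 0.46 to 1.28. The count of risers was 3 without control replicate 2, Salmonella replicate 1 or 3, or sponge replicate 3 or 4.

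Cytokine genes were called in both directions, 50% of them beside 25.0% over all genes. Of 14 measured, 4 fell (TNFSF10, IL27, EBI3 and IL33) and 3 rose (IL18, IL1A and IL12B, the last named after its values were seen). IL33 was near or under the unexpressed level in both groups, at 4.60 to 4.98 with Salmonella and 3.90 to 4.23 with the sponge. The size of its difference, -0.60 ± 0.10 (limma adjusted p = 0.000762), is therefore uncertain. IL27 and EBI3 encode the subunits of interleukin-27: IL27 was at 5.41, 6.24, 5.34 and 6.19 with Salmonella and 5.30, 4.43, 4.45 and 4.54 with the sponge, a difference of -1.11 ± 0.24 (limma adjusted p = 0.00497). EBI3 was at 4.93, 5.74, 5.14 and 5.46 against 4.59, 4.72, 4.57 and 4.44, a difference of -0.73 ± 0.17 (limma adjusted p = 0.00609) that ended at the unexpressed level. Neither gene was above 6.24 in any library. IL1B, the main secreted interleukin-1, was at 8.89, 9.86, 10.005 and 9.63 with Salmonella, 9.48, 9.53, 9.27 and 9.16 with the sponge and 7.28 to 8.74 in controls, and its difference of -0.23 ± 0.28 was not called (limma adjusted p = 0.556). TNF was at 7.86, 8.36, 7.41 and 8.12 against 8.84, 7.24, 7.67 and 7.26, with controls at 7.45 to 8.26 and a difference of -0.19 ± 0.33 (limma adjusted p = 0.696). The groups of both genes overlapped, and the TNF values overlapped the controls too. IL6 lay at 4.78 to 5.70 with Salmonella, 4.66 to 4.96 with the sponge and 4.95 to 5.50 in controls, near the unexpressed level (difference -0.38 ± 0.20, limma adjusted p = 0.181). IL18 was high in all libraries, at 11.65 to 12.43 in controls, 11.83 to 12.77 with Salmonella and 12.92 to 13.17 with the sponge. Its difference of 0.73 ± 0.21 (limma adjusted p = 0.0231) lost the call without Salmonella replicate 3 or 4 or sponge replicate 3 or 4 (0.0551 to 0.0744). IL1A was at 4.06 to 4.29 and 4.27 to 4.67, under the unexpressed level on average, and lost its call without Salmonella replicate 2 (0.0529). The count of cytokines higher was 1 without Salmonella replicate 3 and after median centring.

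Chemokines fell or were not called: 5 of 18 fell and none rose. The share called, 27.8%, was near the 25.0% over all genes, where 13.2% were lower and 11.9% higher. CXCL10, which attracts activated T cells and is induced by interferon gamma (chromosome 8, 71693641 to 71695948), varied most within the sponge group, at 11.24, 8.80, 5.45 and 6.21, against 12.26, 12.20, 11.08 and 13.69 with Salmonella and 5.87, 5.07, 3.85 and 5.48 in controls. It fell by 4.39 ± 0.95 (limma adjusted p = 0.00491), and sponge replicate 1 lay above Salmonella replicate 3. CCL8, a monocyte attractant, was at 7.42, 6.88, 6.93 and 8.79 with Salmonella and 6.07, 5.86, 5.50 and 5.26 with the sponge, a difference of -1.83 ± 0.38 (limma adjusted p = 0.00383). CXCL9, a further interferon gamma target, differed by -1.16 ± 0.39 (limma adjusted p = 0.0397), with sponge replicate 1 at 6.07 and the others at 4.42 to 4.85. Its call ended in 7 of the 12 fits that left out 1 library, all but those without control replicate 1 or 3, Salmonella replicate 1 or 3 or sponge replicate 1 (0.0509 to 0.115). CXCL2 differed by -0.38 ± 0.10 (limma adjusted p = 0.0151) and PF4, which is also a platelet gene, by -0.38 ± 0.13 (limma adjusted p = 0.0455). Both ended at the unexpressed level, and PF4 kept its call only without Salmonella replicate 1 or 3 or sponge replicate 4 (0.0540 to 0.122 in the other 9 fits). The count of chemokines lower was 3 without control replicate 2 or 4, Salmonella replicate 2 or sponge replicate 2 or 3. It was 2 when only the 8 libraries compared were fitted.

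Receptors of chemokines and cytokines moved in both directions, with 7 of 29 higher and 6 lower and a median of -0.07. Of these receptors 44.8% were called, beside 25.0% over all genes. CXCR5, which brings B cells into follicles, was at 6.76, 6.28, 6.74 and 6.49 with Salmonella, 8.05, 8.06, 8.72 and 8.48 with the sponge and 8.71 to 9.77 in controls, a rise of 1.76 ± 0.24 (limma adjusted p = 0.000315). IL2RB, a receptor chain for interleukin-2 and interleukin-15, was at 8.91, 9.74, 9.07 and 9.20 against 10.32, 10.31, 10.22 and 10.84, with controls at 10.49 to 11.01 and a rise of 1.19 ± 0.20 (limma adjusted p = 0.00122). CCR1, a receptor of inflammatory chemokines on monocytes, was at 10.02, 10.06, 10.29 and 10.38 against 9.41, 9.11, 8.36 and 8.32, with controls at 8.24 to 8.62 and a difference of -1.38 ± 0.23 (limma adjusted p = 0.000849). Values of these 3 genes did not overlap between the sponge and Salmonella groups. IL10RB, which interleukin-10 and type III interferon receptors share, fell by 0.80 ± 0.16 (limma adjusted p = 0.00269). The count of risers was 3 or 4 without Salmonella replicate 2 or 4 or sponge replicate 2, 3 or 4.

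Toll-like receptor and NF-kB genes were lower more often than higher, with 9 of 23 lower, 3 higher and a median of -0.35. In this list 52.2% were called, beside 25.0% over all genes. TLR4, the receptor chain for lipopolysaccharide (chromosome 1, 258044610 to 258054641), was at 8.92, 9.30, 9.25 and 9.78 with Salmonella, 7.88, 8.33, 7.79 and 7.33 with the sponge and 6.80 to 7.31 in controls, a difference of -1.48 ± 0.23 (limma adjusted p = 0.000610). TICAM2, an adaptor of TLR4 on the route to interferon, was at 9.76, 10.32, 9.95 and 10.24 against 9.07, 8.08, 7.47 and 7.45, a difference of -2.05 ± 0.30 (limma adjusted p = 0.000477), and sponge replicates 3 and 4 lay under its controls (7.95 to 8.76). LY96, the partner of TLR4 in binding lipopolysaccharide, fell by 1.45 ± 0.25 (limma adjusted p = 0.00124; named after its values were seen). The downstream ligase TRAF6 was at 6.21 to 6.96 with Salmonella, 6.17 to 6.75 with the sponge and 6.51 to 6.76 in controls, a difference of -0.14 ± 0.22 that was not called (limma adjusted p = 0.663). NFKBIA, the inhibitor of NF-kB and an early target of it, was at 11.87, 12.21, 12.44 and 11.998 with Salmonella and 11.86, 11.74, 11.84 and 11.76 with the sponge against 12.86 to 13.15 in controls. Its difference of -0.33 ± 0.14 was not called (limma adjusted p = 0.0976), but passed without Salmonella replicate 1 (0.0421). OTUD1, a deubiquitinase, led the risers, from 5.13, 3.89, 3.66 and 3.68 to 5.79, 6.56, 6.59 and 5.91, a rise of 2.12 ± 0.28 (limma adjusted p = 0.000259) that started at the unexpressed level. The others were MALT1, a protease of antigen receptor signalling, at 1.58 ± 0.28 (limma adjusted p = 0.00143), and TNIP3 at 0.38 ± 0.13 (limma adjusted p = 0.0423), both named after their values were seen. Inflammasome and interleukin-1 family genes were divided, with 3 of 9 higher (IL18, IL1A and IL1R2) and 3 lower (PYCARD, NLRP3 and IL18RAP), IL1R2 and IL18RAP being named after their values were seen. The share called was 66.7%, and the count higher was 1 without Salmonella replicate 3 or 4 or sponge replicate 3 or 4. PYCARD, the adaptor that links sensors to caspase-1, was at 8.15, 9.14, 8.80 and 8.98 with Salmonella and 7.90, 6.73, 7.46 and 7.25 with the sponge, a difference of -1.43 ± 0.26 (limma adjusted p = 0.00160). NLRP3, a sensor of that complex, fell by 0.67 ± 0.16 (limma adjusted p = 0.00736).

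Monocyte markers were lower in the sponge libraries. Of 14 measured, 8 fell and none rose (57.1% called, beside 25.0% over all genes), with a median of -0.81. The mean of the list was 8.77 to 8.98 with Salmonella, 8.15, 8.22, 7.82 and 7.78 in sponge replicates 1 to 4 and 7.28 to 7.70 in controls. LILRA5, an activating receptor of monocytes, was at 8.87, 9.07, 8.73 and 9.19 with Salmonella, 7.29, 7.06, 6.75 and 6.61 with the sponge and 6.92 to 7.61 in controls, a difference of -2.04 ± 0.20 (limma adjusted p = 4.26e-05). MS4A7, a membrane protein of mature monocytes and macrophages, was at 10.86, 11.21, 10.09 and 11.09 against 9.65, 8.88, 8.49 and 8.67, a difference of -1.89 ± 0.27 (limma adjusted p = 0.000406). CX3CR1, the fractalkine receptor, was at 8.94, 9.73, 8.91 and 9.40 against 8.56, 8.34, 7.93 and 8.06, a difference of -1.03 ± 0.21 (limma adjusted p = 0.00381). CD163, a scavenger receptor and the first measured marker of the list, was at 5.26 to 6.51 with Salmonella and 5.85 to 6.70 with the sponge and was not called (difference 0.28 ± 0.30, limma adjusted p = 0.505). The count of markers lower was 5 without Salmonella replicate 3 or without sponge replicate 4. All sponge means of the list lay above those of the controls, and TLR4 is a member of both this list and the Toll-like receptor list. Whether the share of monocytes differed between the groups was not tested. Its part in the falls of interferon, Toll-like receptor and lysosome genes was not tested either.

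Lysosome, oxidase and complement genes, which phagocytes use, were also lower more often than higher. Lysosome and phagosome genes gave 14 of 24 lower and 2 higher (66.7% called, beside 25.0% over all genes), with a median of -0.52. The count lower was only 8 without Salmonella replicate 4 and 9 after quantile normalization. TPP1, a lysosomal peptidase, was at 11.48, 11.80, 12.02 and 12.35 with Salmonella, 10.91, 10.92, 10.39 and 10.16 with the sponge and 11.12 to 11.62 in controls, a difference of -1.32 ± 0.21 (limma adjusted p = 0.000791), so that the sponge values lay under both other groups. GUSB, the lysosomal beta-glucuronidase, also had its sponge values under both other groups, at 9.63, 10.14, 9.77 and 10.17 with Salmonella, 9.21, 8.92, 8.65 and 9.04 with the sponge and 9.90 to 10.22 in controls, with a difference of -0.97 ± 0.17 (limma adjusted p = 0.00122). ATP6V0E1, a proton pump subunit, fell by 0.78 ± 0.16 (limma adjusted p = 0.00329). Of 21 phagocyte oxidase and antimicrobial genes, 6 fell and 2 rose (38.1% called). NCF1, the cytosolic organizer of the oxidase, was at 12.78, 13.22, 13.04 and 13.12 with Salmonella and 11.50, 12.17, 11.52 and 10.99 with the sponge, a difference of -1.49 ± 0.25 (limma adjusted p = 0.00110), with controls at 9.55 to 10.47. The risers were PI3 and RNASE6, an antimicrobial ribonuclease that went from 8.30, 7.78, 8.71 and 7.86 to 9.35, 9.42, 9.60 and 9.76, a rise of 1.37 ± 0.26 (limma adjusted p = 0.00214). Of 11 complement and Fc receptor genes, 4 fell (C1QC, C3AR1, FCER1G and C5) and 3 rose, so 63.6% were called. C1QC, a chain of the first complement component made by macrophages, was at 6.97, 8.92, 7.58 and 7.77 with Salmonella and 4.88, 5.30, 4.47 and 4.83 with the sponge, with controls at the unexpressed level (4.15 to 4.25) and a difference of -2.94 ± 0.33 (limma adjusted p = 0.000117). C3AR1, the receptor of a complement fragment that activates phagocytes, was at 9.34, 8.93, 9.54 and 8.90 against 7.66, 7.06, 5.79 and 7.18, a difference of -2.26 ± 0.34 (limma adjusted p = 0.000490). The 3 risers, CR2, CFD and C3, were higher by 0.67 to 1.84 and are named after their values were seen.

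Antigen presentation was covered by few genes. CD74, the chaperone of class II molecules, was at 8.43, 10.24, 9.35 and 9.70 with Salmonella, 8.04, 7.99, 8.04 and 7.17 with the sponge and 5.56 to 6.85 in controls, a difference of -1.62 ± 0.36 (limma adjusted p = 0.00586). CTSH, a lysosomal protease, also fell, a difference of -1.13 ± 0.29 (limma adjusted p = 0.0112), and the other 3 class II genes were not called. The share called was 40% of 5 class II genes, beside 25.0% over all genes. Neutrophil markers were mostly not called, with 1 of 15 lower (MMP8, at the unexpressed level), a share of 6.67%. S100A9, an abundant calcium-binding protein of neutrophils and monocytes, was at 13.69, 13.69, 13.75 and 13.68 with Salmonella and 13.56, 13.66, 13.65 and 13.67 with the sponge, and its difference of -0.07 ± 0.11 was not called (limma adjusted p = 0.691).

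Lymphocyte genes were higher in the sponge libraries. Of 25 T cell markers 18 rose and none fell (72% called), with a median of 0.81. Of 19 B cell and plasma cell markers 13 rose and 1 fell (73.7% called), with a median of 0.94. Over all genes 25.0% were called. T cell list means were 6.97 to 7.35 with Salmonella, 7.75 to 8.18 with the sponge and 7.99 to 8.36 in controls, and B cell means were 6.01 to 6.36, 7.12 to 7.32 and 7.04 to 7.27. The sponge and Salmonella libraries did not overlap in either list mean, and the sponge libraries overlapped the controls in both. BCL11B, a factor that maintains T cell identity, was at 9.01, 8.88, 9.29 and 8.64 with Salmonella, 10.28, 9.97, 10.47 and 10.86 with the sponge and 10.38 to 10.62 in controls, a rise of 1.44 ± 0.19 (limma adjusted p = 0.000261). CD27, a costimulatory receptor of lymphocytes, was at 8.17, 7.70, 8.56 and 8.19 against 9.19, 8.99, 9.53 and 9.96, a rise of 1.26 ± 0.22 (limma adjusted p = 0.00127), with controls above both at 10.07 to 10.46. GPR183, the largest rise of the T cell list, and TCF7 started from Salmonella means of 4.30 and 4.09, under the unexpressed level. Their sponge means were 6.23 and 5.55, above control means of 4.43 and 4.94, and the size of both rises is uncertain. CD3D, a chain of the T cell receptor complex, was near the unexpressed level in every group although T cells are abundant in blood, at 4.13 to 4.59 in controls and 4.37, 4.51, 4.62 and 4.63 with Salmonella. It was at 5.60, 5.11, 5.05 and 5.60 with the sponge, a rise of 0.81 ± 0.15 (limma adjusted p = 0.00181). Its partner chain CD3E, named after its values were seen, lay at 7.65 to 7.87 in controls, 6.08 to 7.17 with Salmonella and 7.38 to 8.30 with the sponge. Leaving out any 1 library left 13 to 18 T cell and 9 to 12 B cell markers higher, and 14 and 11 without Salmonella replicate 1. None of these fits reached the B cell count of 13.

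**Figure D4:**
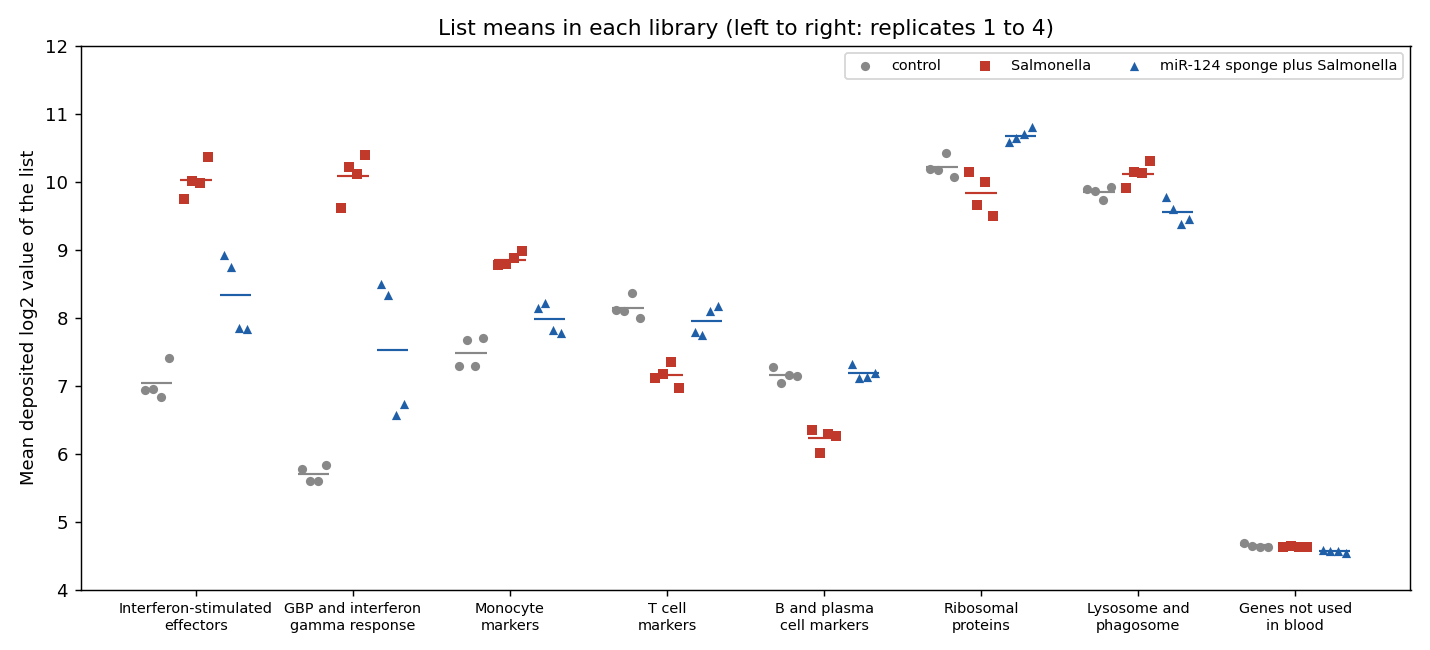
Mean deposited log2 value (vertical axis) over the measured members of 8 gene lists (horizontal axis) in each library. Grey circles are controls, red squares Salmonella and blue triangles sponge plus Salmonella, with replicates 1 to 4 from left to right and a line at each group mean. Guanylate-binding protein means are 8.50 and 8.34 in sponge replicates 1 and 2 and 6.57 and 6.73 in replicates 3 and 4, whereas B cell means of the sponge libraries span 7.12 to 7.32.

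B cell genes gave the largest of these rises. CD79A, the signalling chain of the B cell receptor (chromosome 6, 49996116 to 49999294), was at 9.55, 8.92, 9.09 and 9.12 with Salmonella, 11.36, 11.03, 11.11 and 11.27 with the sponge and 11.66 to 12.55 in controls, a rise of 2.03 ± 0.20 (limma adjusted p = 3.19e-05). SWAP70, a switch factor of activated B cells, was at 7.99, 7.52, 7.57 and 7.54 against 9.10, 9.04, 8.93 and 8.82, with controls at 8.85 to 9.02 and a rise of 1.32 ± 0.15 (limma adjusted p = 0.000117). The exception was CD40, a costimulatory receptor that monocytes also carry, which fell by 1.47 ± 0.41 (limma adjusted p = 0.0179; named after its values were seen). Natural killer and cytotoxic markers gave 5 of 15 higher and none lower (33.3% called, beside 25.0% over all genes), with a median of 0.35. GZMK, a granzyme of memory T cells, was at 8.84, 9.71, 9.72 and 8.36 with Salmonella, 10.32, 10.80, 10.41 and 10.72 with the sponge and 11.51 to 12.31 in controls, a rise of 1.41 ± 0.28 (limma adjusted p = 0.00277). GZMA, the first measured marker of that list, was not called, at 10.51, 11.72, 11.07 and 11.27 against 11.31, 10.88, 10.69 and 11.15 (difference -0.13 ± 0.24, limma adjusted p = 0.703). The cytotoxic count was 3 without Salmonella replicate 2 and 2 without sponge replicate 4. Dendritic cell markers gave 4 of 12 higher and none lower (33.3% called), with a median of 0.07 and 5 negative differences. That count was 1 without Salmonella replicate 2 or 4 or sponge replicate 4. FLT3, their first measured marker, was not called (-0.75 to -0.40 over the fits without 1 library). Basophil and eosinophil markers gave 3 of 7 higher and none lower (42.9% called). FCER1A, the high-affinity receptor for IgE on basophils and dendritic cells, was at 8.44, 8.67, 8.72 and 8.40 with Salmonella, 9.70, 9.72, 10.15 and 10.72 with the sponge and 11.096 to 11.90 in controls, a rise of 1.51 ± 0.22 (limma adjusted p = 0.000482). EPX, the eosinophil peroxidase, and ALOX15, a lipoxygenase of eosinophils, rose by 0.59 ± 0.15 (limma adjusted p = 0.0116) and 1.55 ± 0.37 (limma adjusted p = 0.00825) from Salmonella means under the unexpressed level. Whether more lymphocytes or fewer other cells stand behind these values was not tested.

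Platelet and red cell genes mark carry-over in a mononuclear preparation, and 26.7% of the platelet and 29.4% of the red cell markers were called, near the 25.0% over all genes. Red cell markers gave 5 of 17 lower and none higher, with list means of 7.58 to 8.31 with Salmonella and 6.70 to 7.97 with the sponge, lowest in sponge replicate 1. AHSP, the chaperone of alpha globin, was at 12.80, 11.65, 12.19 and 11.81 with Salmonella, 8.54, 11.56, 10.60 and 10.58 with the sponge and 10.70 to 11.65 in controls, a difference of -1.79 ± 0.47 (limma adjusted p = 0.0130). SLC4A1, the anion exchanger of the red cell membrane, was at 9.70, 9.32, 9.96 and 9.83 against 7.59, 9.06, 8.66 and 9.21, a difference of -1.08 ± 0.29 (limma adjusted p = 0.0148). HBA2, an alpha globin gene, was not called, at 14.03, 13.95, 13.98 and 13.80 with Salmonella and 13.82, 15.01, 14.29 and 15.01 with the sponge, where replicates 2 and 4 were at the ceiling (difference 0.59 ± 0.22, limma adjusted p = 0.0591). It was called higher without sponge replicate 1 (0.00382), after quantile normalization and where a mean of at least 5, 6 or 8 was required. The other members lower were ALAS2, KEL and HBQ1, the last named after its values were seen. ALAS2 lost its call without Salmonella replicate 3 (0.0596) and KEL without Salmonella replicate 1, 3 or 4 or sponge replicate 3 or 4 (0.0730 to 0.0949). Without Salmonella replicate 1, 3 or 4 the red cell count was 2 or 3. Of 15 platelet genes 2 were lower and 2 higher. P2RY12, the ADP receptor, fell from 6.83, 7.50, 7.29 and 8.31 to 5.86, 6.56, 4.95 and 5.80, a difference of -1.69 ± 0.37 (limma adjusted p = 0.00491), while ITGB3, an integrin chain, rose from 5.98, 5.72, 6.48 and 5.45 to 6.59, 6.86, 7.09 and 7.62, by 1.13 ± 0.28 (limma adjusted p = 0.0101). PPBP, an abundant platelet chemokine, was not called, at 11.85 to 13.26 against 11.63 to 12.44 (difference -0.48 ± 0.27, limma adjusted p = 0.195). The part of platelet and red cell RNA in the other differences was not tested.

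Cytosolic ribosomal protein genes were called higher more often than lower. Of 34 measured, 20 rose, 14 were not called and none fell, beside 11.9% higher over all genes, with a median of 0.77, and list means were 9.51 to 10.15 with Salmonella, 10.59 to 10.80 with the sponge and 10.08 to 10.43 in controls. The sponge libraries lay above all others. RPLP0, a stalk protein of the large subunit, was at 11.92, 11.36, 11.89 and 11.28 with Salmonella, 12.98, 13.20, 13.41 and 13.23 with the sponge and 12.65 to 12.83 in controls, a rise of 1.59 ± 0.16 (limma adjusted p = 4.95e-05). RPS6, a small-subunit protein phosphorylated downstream of mTOR, was at 12.13, 11.16, 12.02 and 11.08 against 12.88, 13.17, 13.20 and 13.11, a rise of 1.49 ± 0.22 (limma adjusted p = 0.000484). RPL4 was at 11.38, 11.24, 11.60 and 11.31 against 12.47, 12.08, 12.29 and 12.56, a rise of 0.97 ± 0.14 (limma adjusted p = 0.000406), with the sponge values under its controls (13.27 to 13.47). RPL23 and RPL14 gave the largest named rises of the family and the widest spread. RPL23 was at 11.26, 9.15, 9.91 and 8.30 with Salmonella and 12.03, 12.37, 12.43 and 12.35 with the sponge, with controls at 7.25 to 10.16. RPL14 was at 7.37, 7.53, 7.93 and 3.46 against 9.78, 8.78, 10.35 and 10.39, with controls at 3.96 to 7.45, and Salmonella replicate 4 stood alone at 3.46 (difference 3.25 ± 0.88, and 2.21 without that library). Reads of 50 bp from ribosomal genes can match processed copies elsewhere in the genome, and how such reads were counted is not given in the sources used here, so single members are uncertain. The count of risers was 13 without Salmonella replicate 2 and 13 without sponge replicate 4. T and B cell markers moved in the same direction as these genes, and their part was not tested.

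Translation factors gave 7 of 33 higher and 4 lower (33.3% called, beside 25.0% over all genes). The count higher was 4 without Salmonella replicate 2, 3 or 4 or sponge replicate 4, and the count lower 2 without Salmonella replicate 3. EIF4B, which assists unwinding of messenger leaders, was at 10.21, 10.31, 10.48 and 10.04 with Salmonella, 11.32, 11.21, 11.42 and 11.53 with the sponge and 11.68 to 11.998 in controls, a rise of 1.11 ± 0.14 (limma adjusted p = 0.000187). EEF1G, an elongation factor subunit, rose by 0.89 ± 0.16 (limma adjusted p = 0.00178) and EIF3L by 0.85 ± 0.18 (limma adjusted p = 0.00362). EIF4E3, a cap-binding protein, was at 9.38, 10.10, 9.97 and 9.88 against 8.48, 9.02, 8.29 and 8.14, a difference of -1.35 ± 0.21 (limma adjusted p = 0.000542). Mitochondrial ribosomal proteins (19.5% of 41 called) and respiratory chain genes (23.3% of 30) were called about as often as genes in general, the former with 5 higher and 3 lower and the latter with 4 higher and 3 lower. Members lower included MRPL14, with a difference of -1.01 ± 0.21 (limma adjusted p = 0.00348), and CYC1, a cytochrome subunit, with a difference of -0.82 ± 0.17 (limma adjusted p = 0.00412). Members higher included MRPL39, by 0.68 ± 0.15 (limma adjusted p = 0.00539), and UQCRH, a subunit of the same complex as CYC1, by 1.85 ± 0.48 (limma adjusted p = 0.0129), whose groups overlapped. NDUFB9, a subunit of the first respiratory complex, rose by 1.70 ± 0.46 (limma adjusted p = 0.0163) and lost its call without Salmonella replicate 4 or sponge replicate 3 (0.0503 to 0.0537).

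Genes of protein turnover and of 2 stress responses were lower more often than higher. Proteasome genes gave 9 of 23 lower and 1 higher (43.5% called, beside 25.0% over all genes), with a median of -0.27. The riser was PSME4, an activator of the proteasome named after its values were seen, at 0.55 ± 0.16 (limma adjusted p = 0.0197). POMP, which assembles the proteasome and its interferon-induced form, was at 11.93, 11.89, 11.90 and 11.79 with Salmonella, 11.35, 10.98, 10.28 and 10.41 with the sponge and 9.59 to 10.27 in controls, a difference of -1.12 ± 0.22 (limma adjusted p = 0.00238). PSMB4, a structural subunit, was at 11.07, 11.33, 11.30 and 11.55 against 11.03, 10.34, 10.32 and 10.70, a difference of -0.72 ± 0.18 (limma adjusted p = 0.0104). The proteasome count was 3 without Salmonella replicate 2 and 4 or 5 without Salmonella replicate 4 or sponge replicate 2, 3 or 4. Of 20 genes of the oxidative stress response 6 fell and 2 rose (40% called), with 3 lower without Salmonella replicate 4 or sponge replicate 3 and after quantile normalization. The metallothionein MT2A, a metal-binding protein, was at 12.44, 13.34, 13.17 and 13.58 with Salmonella, 11.55, 11.17, 9.26 and 10.14 with the sponge and 9.50 to 10.47 in controls, a difference of -2.60 ± 0.40 (limma adjusted p = 0.000610). Its close relative MT1A fell by 2.04 ± 0.33 (limma adjusted p = 0.000847), and reads could be shared between these genes. GPX4, a peroxidase of lipid peroxides, rose by 0.77 ± 0.17 (limma adjusted p = 0.00595), and so did catalase, named after its values were seen. Endoplasmic reticulum stress genes gave 5 of 18 lower and 2 higher (38.9% called). The 2 higher were PPP1R15B and DDIT4, both named after their values were seen. ATF5, a stress transcription factor, was at 9.99, 9.41, 9.31 and 9.74 against 9.02, 7.76, 7.95 and 7.63, a difference of -1.52 ± 0.26 (limma adjusted p = 0.00124). EDEM2, which marks misfolded glycoproteins, fell by 1.08 ± 0.16 (limma adjusted p = 0.000542). The count of these genes lower was 3 without Salmonella replicate 3 or 4.

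Among cell cycle and replication genes 9 of 38 fell and 6 rose (39.5% called, beside 25.0% over all genes). GINS2, a subunit of the replicative helicase, was at 5.72, 7.06, 7.04 and 7.42 with Salmonella and 5.62, 4.82, 4.64 and 4.94 with the sponge, a difference of -1.81 ± 0.35 (limma adjusted p = 0.00233). CCNB2, a mitotic cyclin, was at 5.90, 6.01, 7.32 and 7.42 against 5.33, 4.85, 4.99 and 4.74, a difference of -1.68 ± 0.34 (limma adjusted p = 0.00302). CDT1, a licensing factor of replication, was at 5.04, 6.64, 6.55 and 6.10 against 4.78, 4.59, 4.48 and 4.42, a difference of -1.52 ± 0.28 (limma adjusted p = 0.00169) to the unexpressed level. In all 3 genes Salmonella replicate 1 was the lowest of its group, and without it 15 members fell. GINS1, which works in the same helicase as GINS2, rose by 1.23 ± 0.17 (limma adjusted p = 0.000307) from under the unexpressed level. The count of risers was 1 to 3 when Salmonella replicate 2, 3 or 4 or sponge replicate 1, 2 or 3 was left out. The survival factor BCL2, which protects resting lymphocytes, was at 7.65, 7.85, 8.01 and 7.60 with Salmonella, 9.08, 9.17, 9.39 and 9.75 with the sponge and 9.02 to 9.71 in controls, a rise of 1.57 ± 0.19 (limma adjusted p = 0.000168). Heat shock and folding genes were called at 22.4% of 49, near the share of all genes, and DNAJA1, a co-chaperone, fell by 1.07 ± 0.21 (limma adjusted p = 0.00265).

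Metabolic genes moved in both directions. Of 15 glycolysis and hypoxia genes 4 fell and 3 rose (46.7% called, beside 25.0% over all genes). The count higher was 5 without Salmonella replicate 1 and 1 without Salmonella replicate 4. PFKFB3, which drives glycolysis in activated cells, was at 10.30, 11.29, 11.20 and 11.15 with Salmonella, 10.11, 9.44, 9.59 and 9.33 with the sponge and 8.93 to 9.59 in controls, a difference of -1.37 ± 0.23 (limma adjusted p = 0.00110). SLC2A1, the glucose transporter GLUT1, was at 7.53, 7.63, 7.49 and 7.17 against 8.16, 8.39, 8.68 and 8.50, with controls at 8.30 to 8.60 and a rise of 0.98 ± 0.17 (limma adjusted p = 0.00110). ENO1 and ADM fell, with differences of -0.71 ± 0.17 (limma adjusted p = 0.00885) and -1.49 ± 0.34 (limma adjusted p = 0.00651), and ENO1 lost its call after quantile normalization. The remaining called members, MXI1, P4HA1 and DDIT4, are named after their values were seen. Of 26 lipid genes 8 fell and 4 rose (46.2% called), the risers being PLA2G2D, OSBPL10, ALOX15 and OSBPL11, the last named after its values were seen. ABCA1, the cholesterol exporter of macrophages, was at 10.22, 10.20, 10.91 and 10.74 with Salmonella and 9.18, 9.30, 8.99 and 8.40 with the sponge, a difference of -1.55 ± 0.25 (limma adjusted p = 0.000791), and FABP5, a fatty acid carrier, fell by 1.19 ± 0.24 (limma adjusted p = 0.00308).

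Of the signalling and transport families, MAP kinases and phosphatases were called as often as genes in general (25.0% in both), with 17 of 84 higher and 4 lower. MAPK8, the kinase JNK1, gave the smallest p of the named genes: it was at 2.98, 2.98, 3.08 and 2.60 with Salmonella, 4.74, 4.94, 4.98 and 4.81 with the sponge and 4.35 to 4.58 in controls, a rise of 1.95 ± 0.09 (limma adjusted p = 6.24e-09). All its values lay near or under the unexpressed level, so the size of that rise is uncertain. MAP3K1, a kinase upstream of JNK, was measured well above that level, at 9.67, 8.61, 8.88 and 8.60 with Salmonella, 11.18, 11.34, 11.05 and 10.90 with the sponge and 8.64 to 9.69 in controls, a rise of 2.18 ± 0.25 (limma adjusted p = 0.000132). The members lower were MAPK1IP1L, PTPRE, PPP1R3D and PTPRN, of which MAPK1IP1L fell by 1.21 ± 0.21 (limma adjusted p = 0.00121) and the other 3 are named after their values were seen. That count was 7 without Salmonella replicate 1, 1 without Salmonella replicate 4 and 2 without Salmonella replicate 2 or 3 or sponge replicate 3.

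Vesicle fusion and trafficking genes gave 18 of 74 lower and 9 higher (36.5% called, beside 25.0% over all genes), with a median of -0.17. STX11, a syntaxin of killer cells and macrophages, was at 11.76, 12.51, 12.38 and 12.60 with Salmonella, 11.11, 10.66, 9.63 and 9.63 with the sponge and 8.002 to 8.38 in controls, a difference of -2.05 ± 0.29 (limma adjusted p = 0.000406). AP3D1, an adaptor subunit for lysosomal cargo, was at 8.24, 8.51, 8.43 and 8.74 against 7.63, 7.34, 7.26 and 7.26, a difference of -1.11 ± 0.16 (limma adjusted p = 0.000406), with the sponge values under the controls (8.15 to 8.30). VPS13A, a lipid transfer protein, rose by 1.92 ± 0.24 (limma adjusted p = 0.000189) from under the unexpressed level. Small GTPases (23.0% of 100 called), solute carriers (23.9% of 159), splicing factors (21.2% of 66), zinc finger genes (21.7% of 115), ubiquitin enzymes (26.7% of 60), TRIM and RNF ligases (28.8% of 66), leukocyte G protein-coupled receptors (27.4% of 62) and RNA helicases (19.2% of 26) were called at shares near that of all genes. ZNF395, a zinc finger factor, was at 6.95, 6.95, 7.10 and 7.17 with Salmonella and 8.08, 8.29, 8.47 and 8.66 with the sponge, with controls above both at 9.23 to 9.56 and a rise of 1.33 ± 0.16 (limma adjusted p = 0.000159). SLC38A1, a glutamine transporter, rose from 8.65, 8.31, 8.74 and 8.37 to 9.67, 9.60, 9.85 and 10.23, by 1.32 ± 0.18 (limma adjusted p = 0.000293). DDX60, a helicase that aids RNA sensing, fell from 8.97, 9.29, 9.16 and 10.05 to 8.49, 7.95, 6.69 and 7.46, a difference of -1.72 ± 0.32 (limma adjusted p = 0.00209). TRIM7, a ubiquitin ligase, fell from 6.71, 7.05, 7.33 and 6.54 to 5.69, 5.23, 4.90 and 5.005, a difference of -1.70 ± 0.24 (limma adjusted p = 0.000406).

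Genes reported elsewhere as miR-124 targets did not move in 1 direction. Of 34 measured, 7 rose, 6 fell and 21 were not called. The share called was 38.2%, beside 25.0% over all genes, and the median difference was -0.03, beside -0.04. LAMC1, a laminin chain, was at 4.81, 4.52, 4.63 and 4.15 with Salmonella, 6.42, 5.63, 6.53 and 6.26 with the sponge and 5.05 to 5.71 in controls, a rise of 1.68 ± 0.24 (limma adjusted p = 0.000406) that started at the unexpressed level. VAMP3, a vesicle membrane protein, was at 10.81, 10.95, 10.998 and 11.47 against 9.61, 10.05, 9.68 and 9.33, a difference of -1.39 ± 0.20 (limma adjusted p = 0.000413). GSK3B, a kinase that restrains many signalling proteins, was at 9.20, 10.07, 9.94 and 9.92 against 8.56, 8.57, 8.76 and 8.39, a difference of -1.21 ± 0.24 (limma adjusted p = 0.00258), and sponge values lay under those of 3 of the 4 controls. STAT3, described above, also fell. The count of risers among these targets was 2 without Salmonella replicate 3 and 4 without Salmonella replicate 2 or 4 or sponge replicate 2. It was 3 when only the 8 libraries compared were fitted. The level of miR-124 itself and the amount of sponge in the cells were not measured in these files.

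In the 195 genes not normally used in blood, of which 59 symbols stand in the pig gene tables, 32 were called (16.4%), 11 higher and 21 lower, against 25.0% over all genes. Library means of this list were 4.54 to 4.58 with the sponge, under the 4.62 to 4.65 with Salmonella and the 4.63 to 4.70 in controls. Of the 195 differences 128 were negative, with a median of -0.07. In this small shift the kind of column and the treatment cannot be told apart. The largest of these differences was in KRTAP19-6, a hair keratin-associated gene, at 4.24, 4.03, 3.69 and 4.38 with Salmonella, 5.70, 5.42, 5.02 and 5.39 with the sponge and 4.50 to 5.58 in controls. Its difference of 1.30 ± 0.23 passed the test (limma adjusted p = 0.00156). Differences of up to about this size among genes with values near the unexpressed level were thus present in genes that blood is not known to transcribe. Without Salmonella replicate 1 or 4 the count higher was 7, and without Salmonella replicate 3 the count lower was 12.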

How the data were processed

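RNA of pig PBMC was sequenced as single reads of 50 bp after TruSeq library preparation, and RNA integrity numbers were above 8, per the labels' protocols. The submitters' processing notes name Bowtie, R 3.4.2 and a pig assembly, Sscrofa11.1. The authors deposited 1 table of log2 values for 7480 gene symbols in 12 libraries. How reads were counted, normalized and filtered was not given in the sources used here. Depth is unknown, and the base of the logarithm, which is not stated, was taken as 2.

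The values were used as deposited. With limma 3.58.1 in R 4.3.3, a linear model of group means was fitted to all 12 libraries (moderated variance with a trend on mean level), sponge plus Salmonella was set against Salmonella (4 against 4, two-sided), and p-values were adjusted by Benjamini-Hochberg over 7480 genes. Controls entered the spread only and were not tested. The procedure was tested on simulated data. Gene lists (48 and the list of genes not used in blood) are described by counts and medians beside those over all genes. The members and lists were chosen with earlier results of these data known.

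Named genes are the 15 largest rises and falls among called genes without overlap and with a mean of at least 5, the 4 called members of each list with the smallest p, the first measured marker of each cell type, and STAT3, TRAF6, TLR4, TNF, IL6, IL1B, NFKBIA and SOCS3. Genes outside that rule are marked in the text. Of the 7480 symbols 7081 were found in the pig gene tables, and 21.3% of the other 399 were called. A planned description of miR-124 seed matches and promoter motifs was not run, because sequences were not analysed here. The closing section gives the alternatives tried.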

Additional observations from a re-analysis of the deposited data

Results flagged for a closer look

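In groups of 4 libraries, a value was picked out when its gap to the nearest other library, as a share of the group's range, exceeded Dixon's critical value. Chance alone picks about 5% of such groups, and 32 of the 496 groups examined were picked, 23 for genes and 9 for list means. Of these, 10 were in Salmonella replicate 1, more than in any other library. In that library SPAST was at 6.40 (others 3.20 to 3.71), OTUD1 at 5.13 and SWAP70 at 7.99, each above the rest of its group. CD274 at 5.97 (others 7.84 to 8.13), PFKFB3 at 10.30, RBM39 at 8.57 and GSK3B at 9.20 lay under theirs, as did its means for chemokine and cytokine receptors (6.72), restraints on inflammation (7.75) and small GTPases and regulators (6.84). Salmonella replicate 2 was high in the mean of zinc finger genes (5.96). Salmonella replicate 3 was high in S100A9 (13.75), CCR7 (10.92), EEF1G (12.27) and EIF3L (11.101).

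Salmonella replicate 4 was low in RPL14 (3.46, others 7.37 to 7.93) and in the means of respiratory chain genes (8.40) and glycolysis genes (8.09), and high in TNFSF10 (13.46). Among sponge libraries, replicate 1 was low in STAT3 (7.40), IL33 (3.90) and the neutrophil marker mean (6.98) and high in IL27 (5.30). Replicate 2 was high in SPAST (7.57), PDCD1LG2 (4.68) and TRIM5 (7.58), and low in CXCL2 (4.41), GPR63 (4.82) and the mean of RNA helicases (6.89). Replicate 4 was high in IL2RB (10.84) and the platelet marker mean (7.79) and low in CD74 (7.17). The cause of these gaps was not tested.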

How the results depend on the processing

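Leaving out each library in turn gave 1325 to 2013 genes called, 606 to 931 higher and 719 to 1082 lower, with the fewest without Salmonella replicate 4 and the most without Salmonella replicate 1. A mean of at least 6 over the 8 libraries left 1111 called (452 higher), and a mean of at least 8, an alternative chosen after seeing the data, left 585 (225 higher, 360 lower), with fewer genes tested in each. At an adjusted p under 0.01 limma called 810 genes (391 higher, 419 lower). Fitting only the 8 libraries gave 1532 called. Centring each column on its median gave 781 higher and 1109 lower, or 41.3% of calls higher beside 47.4% as reported, and centring on the median difference from the gene mean, added after seeing the data, gave 53.6% of 1902 calls higher. With replicate number as a block limma called 1706 genes (817 higher, 889 lower). Same-numbered libraries correlated in their deviations at -0.154, -0.172, -0.0151 and 0.0455, and no library correlated best with its own number. The labels do not say whether same-numbered libraries share an animal or a culture, and these few correlations cannot settle it. Of 188 named genes called, 153 stayed called under all of the 25 alternatives that held them, 169 under every fit without 1 library, and 0 changed sign under any alternative. Most of these genes were picked for a small p or a large difference without overlap in the same fit, so their stability does not speak for called genes in general. Of 11 named genes not called, 3 gained a call: HBA2 under 5 alternatives, and NFKBIA (0.0421) and FLT3 (0.0325) without Salmonella replicate 1. Uncalled genes that changed sign were S100A9 (0.016 after quantile normalization), GZMA (0.13 after quantile normalization, and -0.35 to 0.059 over the fits without 1 library, positive without Salmonella replicate 2) and TRAF6 (-0.26 to 0.011 over those fits, positive without Salmonella replicate 4). The cause of these changes was not tested. Sequencing depth is unknown, so the precision of single values cannot be given.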
